A study of Mus musculus with 16 samples.

Results

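The Slc25a genes encode the mitochondrial carriers, the proteins that move metabolites across the inner membrane of mitochondria. They were taken as every gene whose symbol in the array's annotation starts with Slc25a, which gave 46 genes of 19505 named on the array, each with 1 probe set. The array gives 1 log2 signal per gene and sample, and a difference of 1 on this scale is a doubling of signal. Signals were measured in BU.MPT, a mouse proximal tubular cell line, in 4 groups of 4 samples. All cells were grown at 39 °C without interferon gamma, and 700 pg of RNA went into each array. Control cells stayed in 21% oxygen, in medium with 4.5 g/L glucose and 10% serum. The H/R group models hypoxia and reperfusion, with cells held for 3 h in about 1% oxygen in medium lacking glucose and serum, then for 1 h in normal culture. Cyanocobalamin, a stable vitamin B12, was added at 0.3 µM in the other 2 groups, named control+B12 and H/R+B12. H/R changes oxygen, glucose and serum together, so these cannot be told apart. Titles read B12 in all 8 treated samples, while the descriptions of their replicates 2, 3 and 4 read B13, B14 and B15, and these were taken as B12. Whether each replicate was a culture of its own is not in the labels, and the p-values below speak only of the scatter among the arrays, which may be technical. In such bulk RNA, fewer cells of a type and less RNA per cell cannot be told apart, and 4 arrays a group limit the precision.

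Each carrier folds as a bundle of helices that opens to one side of the membrane at a time, and most exchange a substrate in the matrix for another in the cytosol. Together they bring ADP and phosphate to ATP synthase and export the ATP, pass reducing equivalents through the malate and aspartate shuttle, and carry acylcarnitines, amino acids, nucleotides, cofactors and iron. Proximal tubule cells in the kidney rely on mitochondrial ATP for reabsorption, which makes these exchanges a known point of stress when oxygen falls.

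Array medians over 22206 tested probe sets lay between 5.21 and 5.37 and were lower in the 8 H/R arrays by 0.08 (-0.08, two-sided exact permutation p = 0.000311), whose part in the results was not tested beyond centring the arrays on their medians. Median signals of the 5222 features named as negative controls averaged 5.92 in control, 5.90 in control+B12, 6.09 in H/R and 5.97 in H/R+B12. The labels used here do not say what these features match. Their medians lay above the medians of the tested probe sets, so they serve as a reference level and not as a measured background. The negative controls did not differ between H/R and other arrays beyond their spread (difference 0.12, two-sided exact permutation p = 0.129). Medians of the 1324 positive control features were lower in the H/R arrays (-0.06, two-sided exact permutation p = 0.0197). Of 10 measured proximal tubule markers 9, among them Lrp2, Cubn, Slc34a1 and Hnf4a, lay below the negative control medians in all 4 groups, and Aqp1 lay above. The 10 averaged 4.28 to 4.61 over control arrays and 4.25 to 4.66 over H/R arrays. Of 7 renal epithelial markers 6, among them Pax2, Pax8 and Cdh16, lay above in all 4 groups, and Epcam lay below. After H/R Aqp1 fell by 0.79 and 0.87 and Pax2 by 0.66 and 0.81, without and with B12, while Krt18 rose by 0.82 and 1.43 (limma adjusted p from 0.000251 to 0.0166). None of the 5 endothelial and 3 leukocyte markers measured reached the negative control median in any group, and 4 of 5 fibroblast markers lay below it in all 4. Of these lists 1 gene passed, the leukocyte marker Ptprc, higher by 0.93 after H/R with B12 in both arms (limma adjusted p = 0.0365). The part of these markers in the results below was not tested.

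Among the carriers 34 lay above the negative controls in all 4 groups, 11 lay below in all 4, and Slc25a33 lay below in both groups without H/R only. A gene counts as below in a group where its mean is under the group's mean negative control median. The 11 were Slc25a2, Slc25a18, Slc25a21, Slc25a29, Slc25a31, Slc25a34, Slc25a41, Slc25a42, Slc25a47, Slc25a53 and Slc25a54, and changes in them are uncertain. Against the mean 95th percentile of the negative controls, 10.25 to 10.39 by group, 26 carriers lay below in all 4 groups. Among the 26 were Slc25a25, Slc25a27, Slc25a33, Slc25a35, Slc25a37 and Slc25a48, which passed in both H/R comparisons below. Slc25a10 lay below this percentile in every group but control, and Slc25a28 in every group but H/R+B12. Signals of these carriers thus lay within the range of the negative controls in most or all groups.

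Promoter sequences are shown for some of the carriers whose signals moved in the same direction in both H/R comparisons below, to set rising and falling members side by side. They hold the 250 bases before the start site from RefSeq on the build GRCm38.p6, printed 5′ to 3′ on the gene's strand. Capitals mark matches on either strand to ACGTG or GCGTG (cores of the hypoxia response element), TGACG (part of the cAMP response element), CACGTG (the E-box, which contains ACGTG on both strands) and TGCATCA (the end of the amino acid response element). Slc25a28, Slc25a33, Slc25a25 and Slc25a24 rose after H/R, and Slc25a23 and Slc25a1 fell. Windows of Slc25a10, Slc25a11, Slc25a39 and Slc25a48, which also fell, are not shown. Those of Slc25a10 and Slc25a48 hold no match, and those of Slc25a11 and Slc25a39 match GCGTG only. Slc25a25 has 3 start sites in RefSeq, which its probe set does not separate. The only window with matches is shown, and its other windows hold none. Slc25a23 has 2 windows, each with 1 match to GCGTG, and 1 is shown. In the counts below, a gene holds a match where any of its windows does.
Slc25a28, chr19:43674882-43675131, minus strand: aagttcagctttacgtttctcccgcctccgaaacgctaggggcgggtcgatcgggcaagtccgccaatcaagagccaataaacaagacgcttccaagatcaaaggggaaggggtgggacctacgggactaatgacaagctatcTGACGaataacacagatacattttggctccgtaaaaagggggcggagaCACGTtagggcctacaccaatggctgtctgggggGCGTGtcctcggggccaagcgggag
Slc25a33, chr4:149774268-149774517, minus strand: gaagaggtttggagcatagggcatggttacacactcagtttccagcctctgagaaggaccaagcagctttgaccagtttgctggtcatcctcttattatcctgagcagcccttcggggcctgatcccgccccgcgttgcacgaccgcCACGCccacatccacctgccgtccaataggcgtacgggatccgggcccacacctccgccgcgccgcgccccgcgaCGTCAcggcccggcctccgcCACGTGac
Slc25a25, chr2:32424067-32424316, minus strand: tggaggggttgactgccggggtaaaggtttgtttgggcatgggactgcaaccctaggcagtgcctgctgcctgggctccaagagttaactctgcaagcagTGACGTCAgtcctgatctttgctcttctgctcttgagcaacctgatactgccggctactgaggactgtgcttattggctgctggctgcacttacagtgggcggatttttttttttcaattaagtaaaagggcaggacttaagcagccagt
Slc25a24, chr3:109122899-109123148, plus strand: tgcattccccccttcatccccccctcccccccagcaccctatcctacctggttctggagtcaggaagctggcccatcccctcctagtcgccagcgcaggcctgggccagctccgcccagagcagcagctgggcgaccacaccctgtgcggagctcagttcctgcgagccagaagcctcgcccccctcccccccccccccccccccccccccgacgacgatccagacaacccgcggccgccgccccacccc
Slc25a23, chr17:57059864-57060113, minus strand: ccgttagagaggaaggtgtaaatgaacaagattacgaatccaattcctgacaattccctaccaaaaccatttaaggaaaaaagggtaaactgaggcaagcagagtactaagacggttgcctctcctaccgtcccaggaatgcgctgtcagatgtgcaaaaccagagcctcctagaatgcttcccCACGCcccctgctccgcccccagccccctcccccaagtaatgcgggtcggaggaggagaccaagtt
Slc25a1, chr16:17928220-17928469, minus strand: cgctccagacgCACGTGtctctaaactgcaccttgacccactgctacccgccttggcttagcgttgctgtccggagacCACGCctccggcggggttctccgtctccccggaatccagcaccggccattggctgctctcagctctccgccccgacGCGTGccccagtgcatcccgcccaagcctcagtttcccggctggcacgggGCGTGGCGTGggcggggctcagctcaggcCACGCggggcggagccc

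In the Slc25a28 window TGACG starts 107 bases before the start site and ACGTG lies on the other strand at 59. The Slc25a33 window has CACGTG 8 bases before the start site and TGACG on the other strand at 28. Slc25a25 has TGACG on both strands at 150 and 147, and Slc25a24 has no match. Slc25a1, which fell, also has CACGTG, at 239, and 5 matches to GCGTG. Windows were at hand for 36 of the 46 carriers, for 4 of the 5 that rose in both comparisons and for 6 of the 8 that fell in both. ACGTG was in 2 of the 4 and 1 of the 6, against 18.5% of 27025 genes with such windows, and TGACG in 3 of the 4 and 0 of the 6, against 19.8%. GCGTG was in 2 of the 4 and 4 of the 6 (30.9% of genes), CACGTG in 1 of each (6.86%), and TGCATCA in none of the 36 (3.1%). Over the 36 carriers with windows the shares were above those over all genes for the rest. They were 30.6% for ACGTG, 27.8% for TGACG, 55.6% for GCGTG and 19.4% for CACGTG. These matches are letters in a window and were not tested against the signals.

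H/R without B12 lowered 10 carriers and raised 5, and 31 did not pass the test (limma, adjusted p under 0.05 over all tested probe sets). The dicarboxylate carrier Slc25a10, the ATP-magnesium/phosphate carrier Slc25a23 and Slc25a48, a carrier linked to choline, had the largest decreases. The mitoferrins Slc25a37 and Slc25a28, which import iron, rose together, as did the ATP-magnesium/phosphate carriers Slc25a25 and Slc25a24 and the pyrimidine nucleotide carrier Slc25a33. Carriers of amino acids had 0 of 9 members past the threshold, too few members to set apart from the share over all probe sets. The 15 carriers called are 32.6% of the 46, against 17.6% of all 22206 probe sets, 8.11% higher and 9.54% lower. Of the 34 carriers above the negative controls 14 were called (41.2%), against 34.7% of the 10470 probe sets whose mean was at or above them. The median difference over the 46 carriers was -0.14, against -0.02 over all tested probe sets, and single carriers ran from -1.66 to 1.20. Groups did not overlap in 19 of the 46, 7 higher and 12 lower, against 20.9% of all probe sets, 9.88% higher and 11% lower.

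With B12 in both arms, H/R lowered 9 carriers and raised 5 (limma, adjusted p under 0.05), where 18.7% of all probe sets were called, 9.04% higher and 9.61% lower. Of the 34 carriers above the negative controls 13 were called (38.2%), against 35.8% of the 10470 brighter probe sets. The medians were -0.21 over the carriers and -0.04 over all probe sets, and groups did not overlap in 14 of the 46, 5 higher and 9 lower (21.5% of all probe sets, 10.3% higher and 11.2% lower). This comparison shares no array with H/R against control. The 5 carriers that rose were the same in both, and 8 fell in both: Slc25a1, Slc25a10, Slc25a11, Slc25a23, Slc25a27, Slc25a35, Slc25a39 and Slc25a48. Passing both tests in the same direction were thus 13 of the 46 carriers, a larger share than the 13.2% of all probe sets, dim ones included. Of the 34 carriers above the negative controls 12 passed both, and the matching share of the brighter probe sets was not taken. Differences had the same sign in 36 of the 46 carriers (69.0% of all probe sets). Pearson's r over the 46 was 0.88 and Spearman's rho 0.75, as a description, since the carriers share their arrays.

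**Figure D1:**
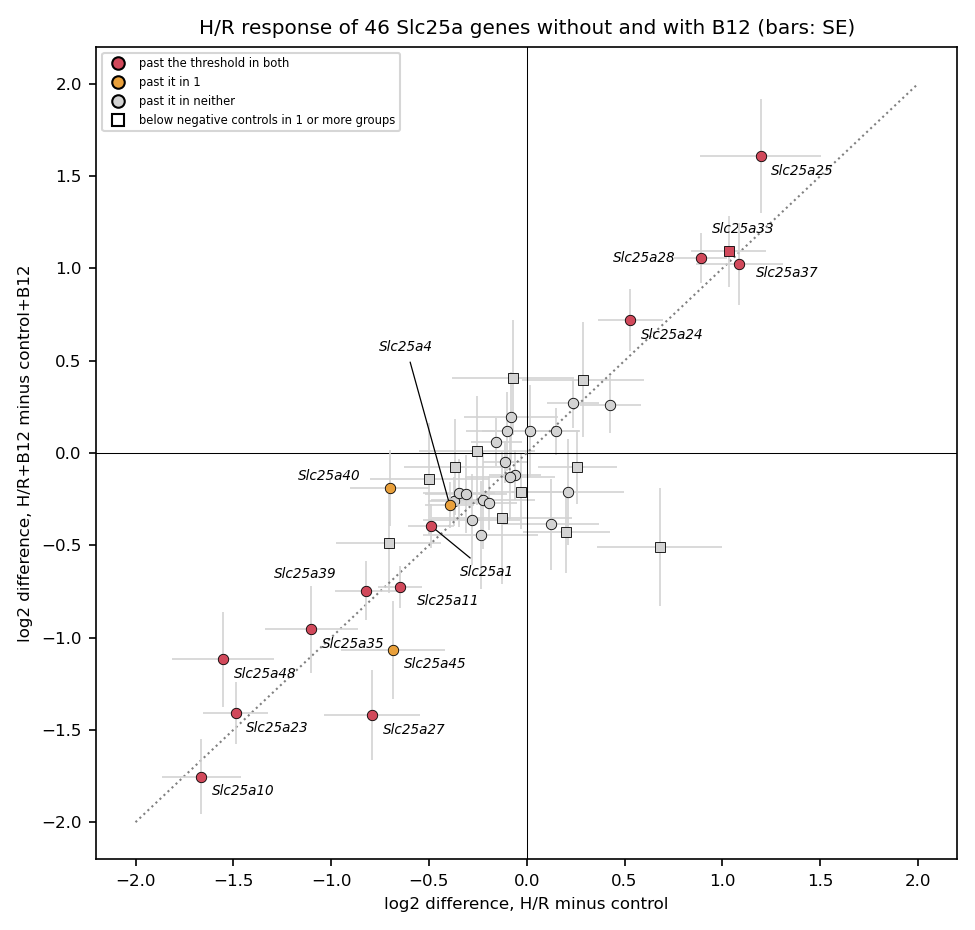
Log2 difference after H/R without B12 (x axis) against that with B12 in both arms (y axis) for the 46 Slc25a genes, with SE bars. The 13 genes past the threshold in both lie along the dotted line of equal change, from Slc25a10 at -1.66 and -1.75 to Slc25a25 at 1.20 and 1.61.

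Carboxylate carriers link the citric acid cycle to the cytosol, and the same 3 of 5 fell in both comparisons while 0 rose. Of all probe sets 9.54% fell without B12 and 9.61% with it, and 13.2% passed both in the same direction, up or down. Among the 10470 brighter probe sets 34.7% and 35.8% were called, up or down. All carboxylate carriers but Slc25a21 lay above the negative controls, and the share of the brighter probe sets that fell was not taken. Slc25a10 exchanges malate or succinate for phosphate and sulfate. Its log2 signal was 10.77, 10.64, 9.98 and 10.10 in control and 8.66, 8.46, 8.80 and 8.93 in H/R. With B12 the arrays gave 10.18, 10.47, 10.30 and 10.20 in normal culture and 8.28, 8.59, 8.24 and 9.02 after H/R. Every H/R array lay below every array in normal culture, a decrease of 1.66 ± 0.20 (SE, n = 4 against 4; 3.17-fold, limma adjusted p = 2.43e-05) without B12. With B12 the difference was -1.75 ± 0.20 (limma adjusted p = 1.61e-05).

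The oxoglutarate/malate carrier Slc25a11, an arm of the malate and aspartate shuttle, had signals of 14.36, 14.30, 14.46 and 14.17 in control and 13.69, 13.74, 13.69 and 13.57 in H/R. With B12 they were 14.29, 14.47, 14.27 and 14.39 and 13.69, 13.65, 13.65 and 13.55. These groups are tight and far apart, with differences of -0.65 ± 0.11 and -0.72 ± 0.11 (limma adjusted p = 0.000656 and 0.000255). Slc25a1, which exports citrate for fatty acid and sterol synthesis, fell by 0.49 ± 0.12 (limma adjusted p = 0.00787), from 14.55 ± 0.06 (SD, n = 4) to 14.06 ± 0.07. With B12 its difference was -0.39 ± 0.12 (limma adjusted p = 0.0286). That call was lost on leaving out replicate 2 or 3 of control+B12 (adjusted p = 0.0836 and 0.085) or replicate 1, 2 or 4 of H/R+B12 (0.0715, 0.0614 and 0.0662). It was also lost with only both groups compared in the fit (0.101) or arrays centred on their medians (0.0847). The carnitine/acylcarnitine carrier Slc25a20, which admits fatty acids for oxidation, did not pass, at -0.28 ± 0.25 and -0.36 ± 0.25, nor did the oxodicarboxylate carrier Slc25a21, below the negative controls.

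**Figure D2:**
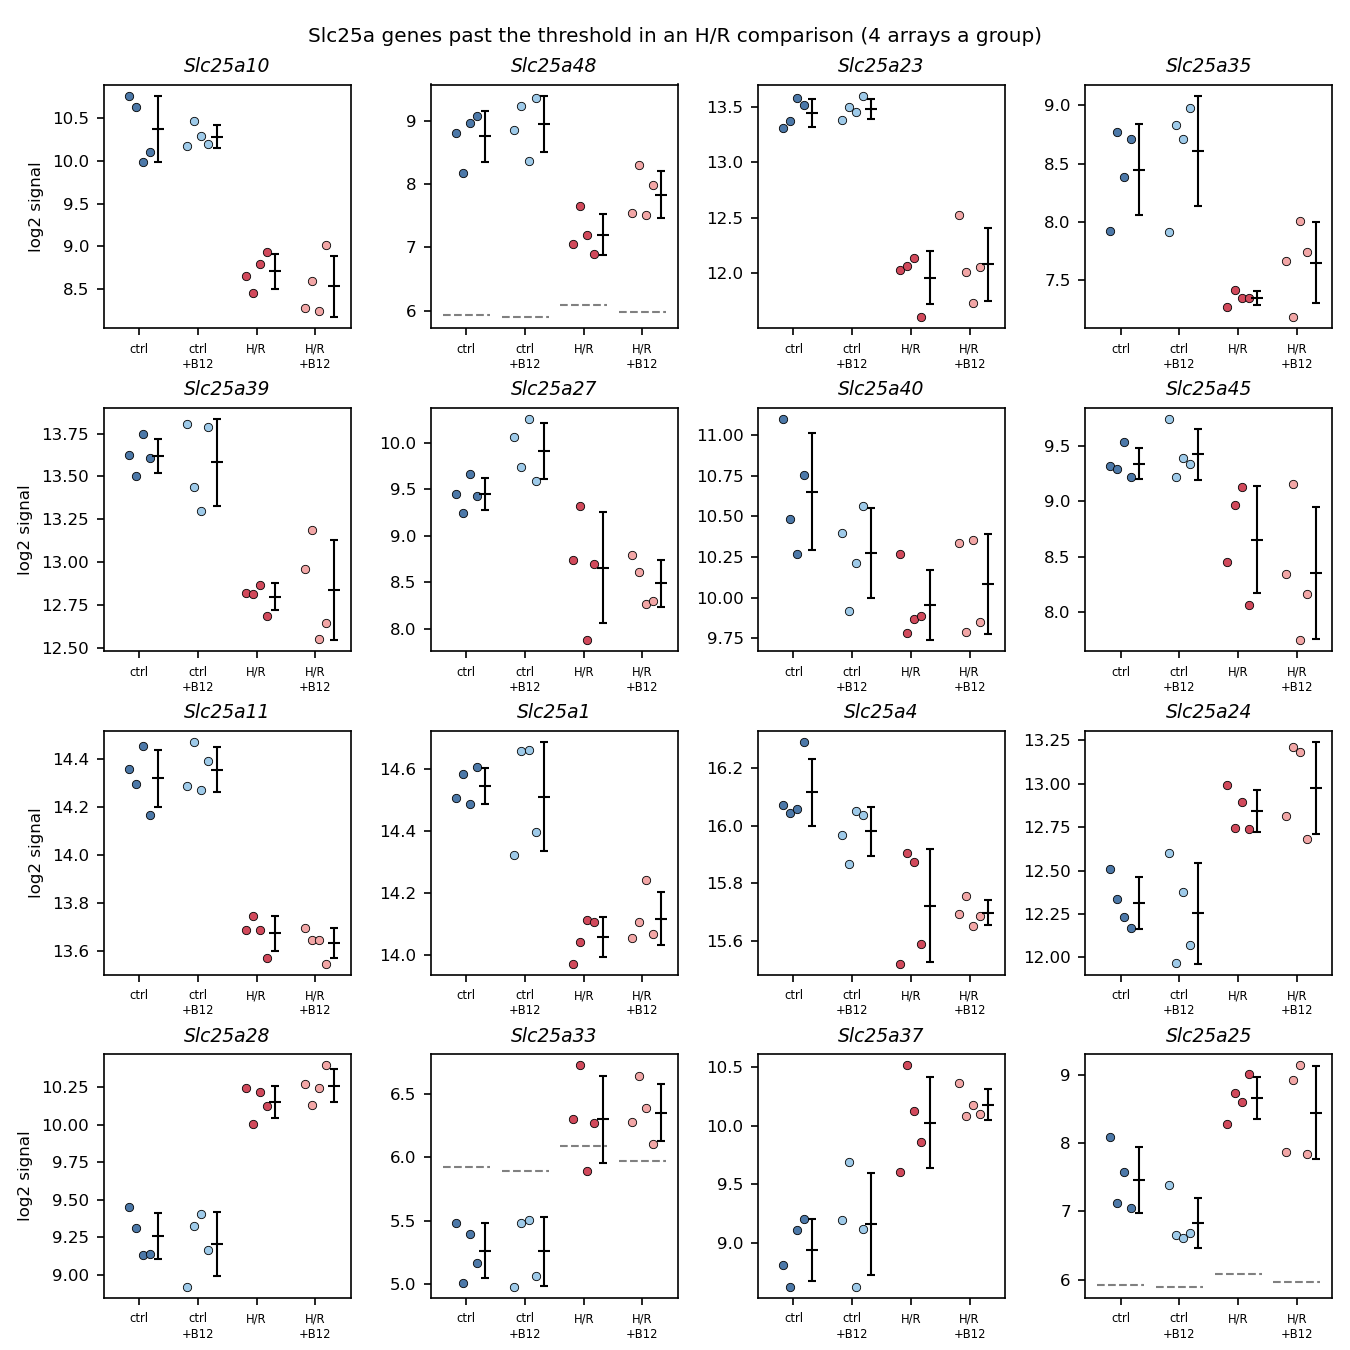
Log2 signal in each array (points) of the 16 Slc25a genes past the threshold in at least 1 H/R comparison, by group, with the group mean and SD at the right of each set; dashed lines mark the mean negative control median where it is near. In Slc25a10, Slc25a23, Slc25a11 and Slc25a28 all 8 H/R arrays lie on 1 side of the 8 arrays in normal culture, and Slc25a33 starts below the negative controls.

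ADP/ATP carriers are the main route of ATP out of mitochondria, and the phosphate carrier feeds ATP synthase. Slc25a4, the form of heart and muscle, had 16.07, 16.04, 16.06 and 16.29 in control and 15.52, 15.91, 15.87 and 15.59 in H/R. With B12 it had 15.97, 15.87, 16.05 and 16.04 and 15.69, 15.76, 15.65 and 15.69. The groups did not overlap, but the changes were small: -0.39 ± 0.12 without B12 (limma adjusted p = 0.0378) and -0.28 ± 0.12 with it, which did not pass (0.142). The second passed with an intensity trend (adjusted p = 0.0147) and with probe sets below the negative controls left out (0.0422). The first call was lost with arrays centred on their medians (0.122), after quantile normalization (0.0506) and with only both groups compared in the fit (0.121). It was lost too on leaving out any of replicates 1 to 4 of control (adjusted p = 0.0554, 0.054, 0.0576 and 0.111) or replicate 1 or 4 of H/R (0.122 and 0.105).

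Slc25a5, the form of dividing cells, had 16.51, 16.29, 16.34 and 16.21 in control, 16.12, 16.24, 16.26 and 16.30 in H/R, 16.38, 16.27, 16.38 and 16.44 in control+B12 and 16.33, 16.26, 16.42 and 16.27 in H/R+B12. Its groups overlapped, and the differences of -0.11 ± 0.11 (95% interval -0.35 to 0.13) and -0.05 ± 0.11 (-0.29 to 0.19) did not pass. The phosphate carrier Slc25a3 had 15.38, 15.68, 15.38 and 15.37 in control, 14.96, 15.08, 15.22 and 15.06 in H/R, 15.25, 15.29, 15.43 and 15.52 in control+B12 and 15.20, 15.28, 15.03 and 14.92 in H/R+B12. Control and H/R did not overlap, but the difference of -0.37 ± 0.13 did not pass (limma adjusted p = 0.0613), nor did -0.26 ± 0.13 with B12 (0.198). With an intensity trend both passed (adjusted p = 0.00328 and 0.0421). Slc25a31, the germ line form, stayed below the negative controls and is treated with B12 below.

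Among the ATP-magnesium/phosphate carriers, which set the pool of adenine nucleotides in the matrix, 2 rose and 1 fell. Slc25a23 had 13.31, 13.37, 13.58 and 13.52 in control and 12.03, 12.06, 12.14 and 11.60 in H/R. With B12 the values were 13.39, 13.50, 13.45 and 13.60 and 12.52, 12.01, 11.72 and 12.06. All 8 H/R arrays lay below all 8 others, with decreases of 1.49 ± 0.17 (2.81-fold) and 1.41 ± 0.17 (limma adjusted p = 1.17e-05 and 1.86e-05). Slc25a25, which like Slc25a23 and Slc25a24 is regulated by calcium, moved the other way, from 8.09, 7.12, 7.58 and 7.05 in control to 8.28, 8.73, 8.61 and 9.02 in H/R. With B12 it went from 7.38, 6.65, 6.61 and 6.69 to 7.87, 8.92, 9.14 and 7.84. The rises were 1.20 ± 0.31 and 1.61 ± 0.31 (limma adjusted p = 0.0116 and 0.00132), 2.29-fold and 3.05-fold.

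Slc25a24 had 12.51, 12.34, 12.23 and 12.17 in control and 12.99, 12.75, 12.89 and 12.74 in H/R, then 12.60, 11.97, 12.38 and 12.07 and 12.82, 13.21, 13.18 and 12.68 with B12. Groups did not overlap in either comparison, and it rose by 0.53 ± 0.17 and 0.72 ± 0.17 (limma adjusted p = 0.0356 and 0.00532). On leaving out replicate 2, 3 or 4 of control the first rise did not pass (adjusted p = 0.0645, 0.0841 and 0.0934), nor on leaving out replicate 1, 2 or 3 of H/R (0.0969, 0.0521 and 0.0792). The calcium-independent relative Slc25a41 lay below the negative controls, as did the coenzyme A carrier Slc25a42 (-0.71 ± 0.27 and -0.49 ± 0.27, not past the threshold). Slc25a42 passed without H/R 1 (-0.88, adjusted p = 0.0441). Slc25a16, tied to coenzyme A, and the peroxisomal Slc25a17 did not pass, with differences of -0.09 and -0.16 without B12 and of -0.13 and 0.06 with it.

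**Figure D3:**
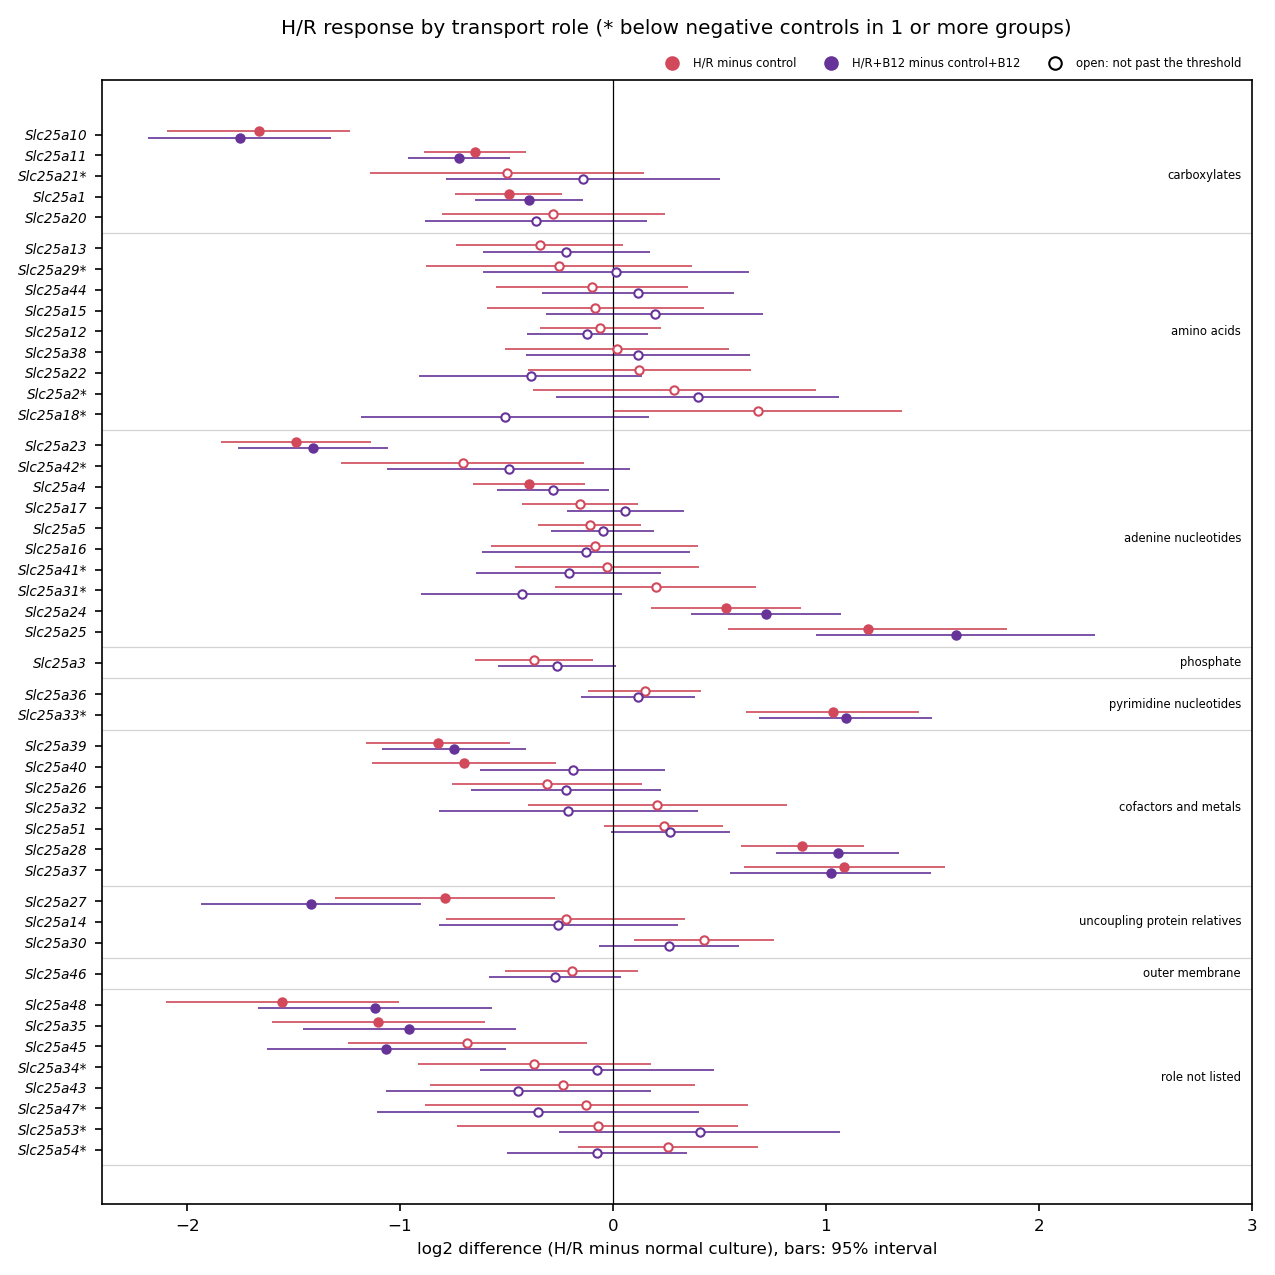
Log2 difference between H/R and normal culture for each of the 46 Slc25a genes by transport role, without B12 (red) and with B12 in both arms (purple), with 95% intervals; filled points passed the threshold. All 5 carboxylate carriers lie left of 0, the amino acid carriers straddle 0, and the ATP-magnesium/phosphate carriers Slc25a23, Slc25a24 and Slc25a25 lie on opposite sides.

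Both mitoferrins, which supply iron for haem and iron-sulfur clusters, were higher after H/R. Slc25a28, the form present in most tissues, had 9.45, 9.31, 9.13 and 9.14 in control and 10.25, 10.01, 10.22 and 10.13 in H/R. With B12 it had 8.92, 9.32, 9.40 and 9.17 and 10.27, 10.13, 10.24 and 10.39. No H/R array overlapped normal culture, and the rises were 0.89 ± 0.14 and 1.06 ± 0.14 (limma adjusted p = 0.000203 and 4.01e-05). Slc25a37, best known from red cell precursors, had 8.82, 8.63, 9.11 and 9.21 in control, 9.61, 10.52, 10.12 and 9.87 in H/R, 9.20, 9.69, 8.63 and 9.12 in control+B12 and 10.36, 10.08, 10.18 and 10.10 in H/R+B12. It rose by 1.09 ± 0.22 and 1.02 ± 0.22 (limma adjusted p = 0.00225 and 0.00345), 2.12-fold and 2.03-fold.

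Slc25a39, which brings glutathione into the matrix, moved the other way from the iron carriers. It had 13.62, 13.50, 13.75 and 13.60 in control and 12.82, 12.81, 12.87 and 12.69 in H/R. With B12 the arrays read 13.80, 13.44, 13.30 and 13.79 and 12.96, 13.19, 12.55 and 12.64. Groups did not overlap, with differences of -0.82 ± 0.16 and -0.75 ± 0.16 (limma adjusted p = 0.00143 and 0.00298). Its close relative Slc25a40 had 11.10, 10.49, 10.27 and 10.76 in control, 10.27, 9.78, 9.87 and 9.89 in H/R, 10.39, 9.92, 10.21 and 10.57 in control+B12 and 10.34, 9.79, 10.36 and 9.85 in H/R+B12. Its groups touched (10.27 in an array of each), and it passed without B12 (-0.70 ± 0.20, limma adjusted p = 0.0243) but not with B12 (-0.19 ± 0.20, 0.609). The first call was lost on leaving out replicate 1 or 4 of control (adjusted p = 0.084 and 0.0605) or replicate 2, 3 or 4 of H/R (0.0695, 0.0601 and 0.057). The 2 responses were not shown to differ (interaction 0.51 ± 0.29, limma adjusted p = 0.987).

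Slc25a26 imports S-adenosylmethionine, the methyl donor made downstream of B12-dependent methionine synthase, and Slc25a32 imports folate and FAD. Neither passed after H/R: Slc25a26 was at -0.31 ± 0.21 and -0.22 ± 0.21, and Slc25a32 at 0.21 ± 0.29 and -0.21 ± 0.29. Means of Slc25a26 were 7.78 ± 0.26 in control, 7.70 ± 0.48 in control+B12, 7.47 ± 0.18 in H/R and 7.48 ± 0.19 in H/R+B12 (SD, n = 4). Added B12 left differences in it of -0.08 in normal culture (95% interval -0.52 to 0.37) and 0.01 in H/R cells (-0.44 to 0.46). For Slc25a32 these were 0.19 (-0.42 to 0.79) and -0.23 (-0.84 to 0.38). The NAD carrier Slc25a51 did not pass either, at 0.24 ± 0.13 and 0.27 ± 0.13.

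Pyrimidine nucleotide carriers supply mitochondrial DNA and RNA synthesis. Slc25a33, the form induced by growth signals, had 5.48, 5.01, 5.40 and 5.17 in control and 6.30, 6.73, 5.89 and 6.27 in H/R. With B12 it had 4.98, 5.48, 5.51 and 5.07 and 6.28, 6.64, 6.39 and 6.10. Groups did not overlap, and it rose by 1.03 ± 0.19 and 1.09 ± 0.19 (limma adjusted p = 0.00102 and 0.000635). Because its means without H/R, 5.27 and 5.26, lay below the negative controls, the size of the rise is uncertain. Slc25a36 transports the same substrates and was at 0.15 ± 0.13 and 0.12 ± 0.13, neither past the threshold.

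Amino acid carriers had 0 of 9 members past the threshold in either H/R comparison, against 17.6% and 18.7% of all probe sets. With only 9 members, 3 of them below the negative controls, a count of 0 cannot be told apart from these shares. The aspartate/glutamate carriers of the malate and aspartate shuttle were at -0.06 ± 0.13 and -0.12 ± 0.13 for Slc25a12 and at -0.34 ± 0.18 and -0.22 ± 0.18 for Slc25a13. The ornithine carrier Slc25a15 was at -0.08 and 0.20, the glutamate carrier Slc25a22 at 0.12 and -0.39, the haem-linked glycine carrier Slc25a38 at 0.02 and 0.12, and the branched-chain carrier Slc25a44 at -0.10 and 0.12. The remaining 3, Slc25a2, Slc25a18 and Slc25a29, lay below the negative controls.

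Of the uncoupling protein relatives, which resemble the proton leak protein of brown fat, Slc25a27 fell. It had 9.45, 9.25, 9.67 and 9.43 in control, 8.74, 9.32, 7.88 and 8.69 in H/R, 10.06, 9.74, 10.26 and 9.59 in control+B12 and 8.79, 8.61, 8.26 and 8.30 in H/R+B12. Control and H/R overlapped through a single H/R array at 9.32, whereas the B12 groups did not overlap. Differences were -0.79 ± 0.24 without B12 (limma adjusted p = 0.0329) and -1.42 ± 0.24 with it (0.000551), and the interaction of -0.63 ± 0.35 did not pass (0.987). The first call was lost on leaving out replicate 1, 3 or 4 of control (adjusted p = 0.0623, 0.0906 and 0.0607) or the same numbers of H/R (0.0551, 0.108 and 0.0593), with only both groups compared in the fit (0.0745) and with centred arrays (0.0548). Slc25a30, the kidney relative, was at 0.43 ± 0.16 (adjusted p = 0.0718) and 0.26 ± 0.16. The first of these passed with centred arrays (adjusted p = 0.0467), with an intensity trend (0.0216), with dim probe sets left out (0.0216 and 0.0466) and without control replicate 3 (0.0428). Slc25a14 did not pass, at -0.22 and -0.26.

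Slc25a48 had 8.80, 8.17, 8.97 and 9.08 in control and 7.06, 7.66, 7.20 and 6.89 in H/R. With B12 it had 8.86, 9.24, 8.36 and 9.36 and 7.55, 8.30, 7.51 and 7.99. It fell by 1.55 ± 0.26 and 1.12 ± 0.26 (limma adjusted p = 0.000423 and 0.00545), and no H/R array reached the normal culture arrays of its comparison. Slc25a35, whose substrate is not settled, had 7.92, 8.78, 8.39 and 8.71 in control, 7.27, 7.41, 7.35 and 7.35 in H/R, 7.92, 8.83, 8.71 and 8.98 in control+B12 and 7.67, 7.19, 8.01 and 7.75 in H/R+B12. It fell by 1.10 ± 0.24 and 0.96 ± 0.24 (limma adjusted p = 0.0033 and 0.00861), with an overlap in the B12 arms at 7.92 and 8.01.

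Slc25a45 passed with B12 (-1.07 ± 0.27, limma adjusted p = 0.00877) and not without it (-0.68 ± 0.27, 0.0932), and the interaction of -0.38 ± 0.37 did not pass (0.987). Its groups did not overlap in either comparison. The difference without B12 passed too with an intensity trend (adjusted p = 0.0397), with probe sets below the negative controls left out (0.0384) and without H/R+B12 replicate 2 in the fit (0.0401). Slc25a46, an outer membrane protein that acts in mitochondrial shape, was at -0.19 ± 0.15 and -0.27 ± 0.15, and Slc25a43 at -0.24 ± 0.29 and -0.44 ± 0.29, none past the threshold. Leaving out control+B12 3 put Slc25a43 at -0.79 with B12 (adjusted p = 0.0258).

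Related carriers were also set side by side within each array, as the difference of their log2 signals. The 9 pairs were chosen after their values were seen, so these changes are a description of the values above, with no test. The ratio of Slc25a25 to Slc25a23 was higher after H/R, by 2.68 without and 3.02 with B12, and that of Slc25a24 to Slc25a23 by 2.02 without and 2.13 with B12. In both no H/R array overlapped normal culture. Slc25a25 to Slc25a24 was higher by 0.67 without and 0.89 with B12, and its groups overlapped without B12 only.

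The H/R difference in the ratio of Slc25a10 to Slc25a11 was -1.01 without and -1.03 with B12, and no H/R array overlapped normal culture. For Slc25a33 to Slc25a36 it was 0.88 without and 0.97 with B12, also without overlap, but its size is uncertain since Slc25a33 lay below the negative controls in normal culture. For Slc25a4 to Slc25a5 it was -0.28 without and -0.23 with B12, likewise overlapping without B12 only. It was -0.12 without and -0.56 with B12 for Slc25a39 to Slc25a40 and 0.28 without and 0.10 with B12 for Slc25a12 to Slc25a13, with overlap throughout. For the mitoferrins, the ratio of Slc25a37 to Slc25a28 itself ran from -0.64 to 0.51 over the H/R arrays and from -0.78 to 0.37 over the others, which overlap widely.

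**Figure D4:**
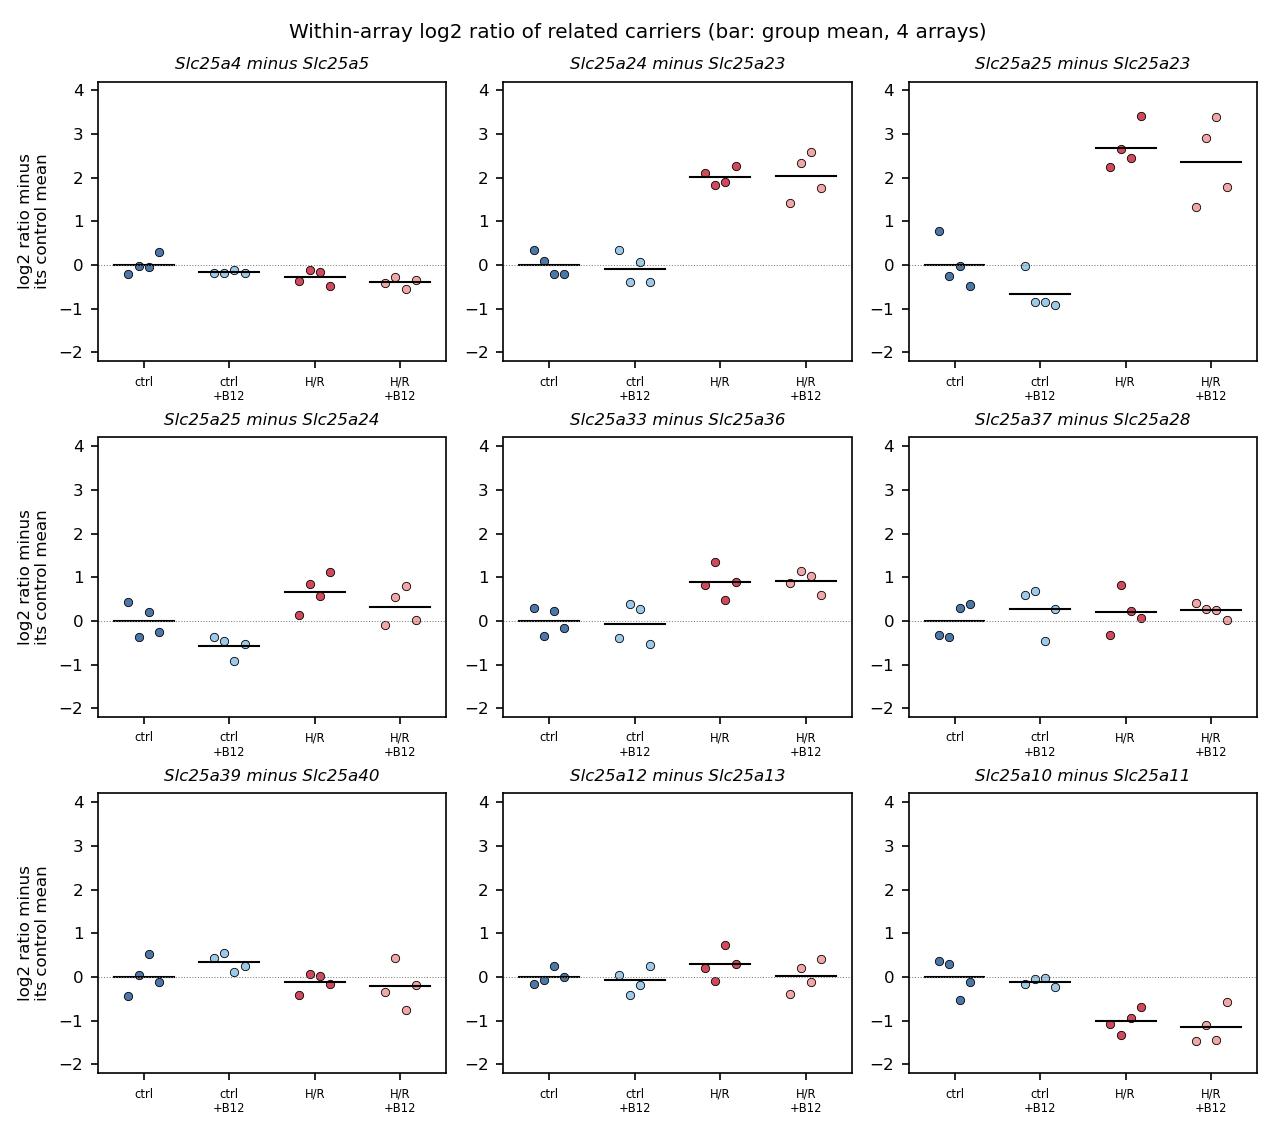
Log2 ratio of the signals of 9 pairs of related carriers in each array (points), set to 0 at the control mean, with group means as bars. Ratios of Slc25a24 and Slc25a25 to Slc25a23 are higher in every H/R array than in any array in normal culture, while arrays of the groups overlap for Slc25a37 to Slc25a28.

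Added B12 changed no carrier past the threshold, in H/R cells or in normal culture, and the same held for the interaction (limma, adjusted p under 0.05; 0% of all 22206 probe sets in each). At an unadjusted p under 0.05 there were 1 of 46 carriers in H/R cells, 3 in normal culture and 1 in the interaction, against 4.55%, 5.76% and 4.82% of all probe sets. Groups did not overlap in 1 carrier in H/R cells, the peroxisomal Slc25a17 (0.22 ± 0.13), and in 1 in normal culture, Slc25a31, against 2.87% of all probe sets in each. Both were higher with B12, as were 1.38% and 1.36% of all probe sets without overlap; the Slc25a17 groups meet at 12.28. Median differences over the 46 were 0.04 in H/R cells and -0.00 in normal culture. In H/R cells the 95% interval of the B12 difference lay within 1 of zero on the log2 scale for 42 of the 46 carriers and within 0.5 for 20. In normal culture it did so for 40 and 17. These comparisons share the H/R or control arrays with H/R against control.

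The smallest p-values in H/R cells belonged to Slc25a48, Slc25a22 and Slc25a2. Slc25a48 was higher with B12 by 0.63 ± 0.26 (limma adjusted p = 1), and its groups overlapped, at 7.66 in H/R and 7.51 in H/R+B12. Slc25a22 had 6.95, 7.00, 6.59 and 7.09 in H/R and 6.60, 6.34, 6.31 and 6.32 in H/R+B12, a difference of -0.51 ± 0.25 with groups that overlapped at 6.59 and 6.60. In normal culture Slc25a22 had 7.11, 6.57, 6.13 and 7.31, and 6.18, 7.24, 6.97 and 6.72 with B12. Slc25a2, an ornithine carrier below the negative controls, had 3.55, 3.56, 3.49 and 3.41 in H/R and 3.95, 4.29, 3.28 and 4.89 in H/R+B12 (0.60 ± 0.31). Its values in control were 3.03, 3.09, 2.96 and 3.77, and 3.60, 4.06, 2.91 and 4.26 in control+B12.

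In normal culture the smallest p-values belonged to Slc25a31, Slc25a18 and Slc25a21, all below the negative controls. Slc25a31 had 3.19, 3.17, 2.76 and 3.05 in control and 3.90, 3.69, 4.07 and 3.45 in control+B12, which did not overlap, a difference of 0.74 ± 0.22 (limma adjusted p = 0.763). In H/R it had 3.67, 3.13, 3.22 and 2.96, and 3.02, 3.65, 2.88 and 3.86 with B12. Slc25a18, a glutamate carrier, had 3.67, 2.47, 3.33 and 3.44 in control, 4.03, 3.20, 4.62 and 3.83 in control+B12, 4.77, 3.62, 3.87 and 3.38 in H/R and 3.33, 3.49, 3.54 and 3.30 in H/R+B12. These overlap, and its B12 difference of 0.69 ± 0.32 and interaction of -1.19 ± 0.45 did not pass (limma adjusted p = 0.853 and 0.972). Slc25a21 had 5.36, 5.50, 5.69 and 4.95 in control, 4.81, 5.54, 3.80 and 4.75 in control+B12, 4.89, 4.90, 4.82 and 4.90 in H/R and 4.29, 5.14, 3.99 and 4.91 in H/R+B12, with a B12 difference of -0.65 ± 0.30 in normal culture.

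**Figure D5:**
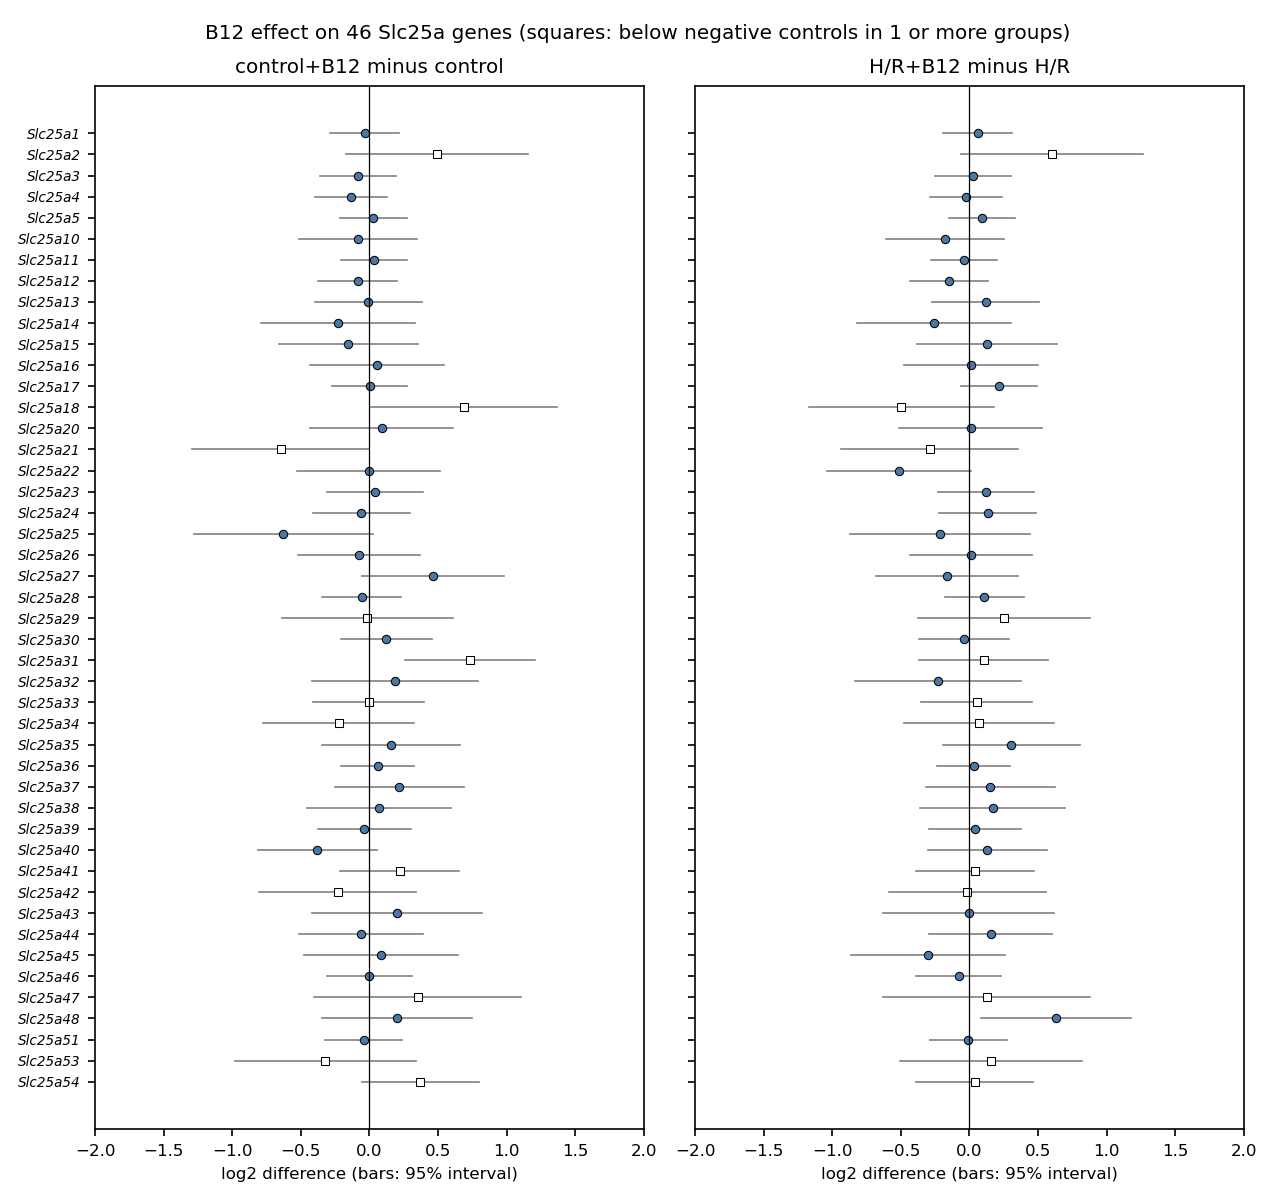
Log2 difference made by B12 in normal culture (left) and in H/R cells (right) for the 46 Slc25a genes, with 95% intervals; open squares lie below the negative controls in at least 1 group. No gene passed the threshold, and most points lie within 0.5 of zero.

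Spread between arrays of a group bounds what these comparisons can resolve. The pooled SD within groups had a median of 0.29 over the 34 carriers above the negative controls, 0.43 over the other 12 and 0.32 over all probe sets. It was as low as 0.09 for the best measured carrier. For the 46 carriers the median SE of a difference was 0.22.

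By position, 4 pairs of carriers are neighbouring coding genes in RefSeq: Slc25a23 with Slc25a41, Slc25a24 with Slc25a54, Slc25a5 with Slc25a43 and Slc25a29 with Slc25a47. In the first pair Slc25a23 fell while Slc25a41 was at -0.03 ± 0.20 and -0.21 ± 0.20 in the H/R comparisons. Slc25a54, beside the rising Slc25a24, was at 0.26 ± 0.20 and -0.07 ± 0.20. Neither Slc25a29 (-0.25 and 0.01) nor Slc25a47 (-0.13 and -0.35) passed. The other carriers below the negative controls, Slc25a34 (-0.37 and -0.07) and Slc25a53 (-0.07 and 0.41), did not pass either.

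Other transporters of mitochondrial membranes were listed beside the Slc25a genes, and 22 of 27 were measured: uncoupling proteins and carrier relatives, the pyruvate carrier, outer membrane channels, sideroflexins, calcium transporters and ABC transporters. After H/R without B12 0 rose and 5 fell (22.7% called, against 17.6% of all probe sets and 34.7% of the brighter ones), and with B12 in both arms 1 rose and 5 fell (27.3%, against 18.7% and 35.8%). Their medians were -0.26 and -0.19, against -0.02 and -0.04 over all probe sets. Mtch1, a carrier relative of the outer membrane, fell by 1.38 ± 0.13 and 1.26 ± 0.13 (limma adjusted p = 1.56e-06 and 3.72e-06). Smdt1, the EMRE subunit that the calcium uniporter needs, was at -0.99 ± 0.11 and -0.96 ± 0.11 (limma adjusted p = 1.23e-05 and 1.71e-05). Sfxn2, a sideroflexin, was at -1.21 ± 0.23 and -1.08 ± 0.23 (limma adjusted p = 0.00108 and 0.00275).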

How the data were processed

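The deposited table holds log2 signal per probe set, made by the authors with RMA in Affymetrix Expression Console, with the Transcriptome Analysis Console also named, per the submitters' processing notes. Software versions are not given in sources used here. Values were used as deposited. Tests ran on 22206 probe sets, without the 6640 control features. Gene names came from the platform annotation, and all 46 Slc25a symbols were in the RefSeq table.

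All 16 arrays were fitted with limma 3.58.1 in R 4.3.3, with 1 mean per group and empirical Bayes moderation (4.23 prior degrees of freedom). Two-sided p-values were adjusted across the tested probe sets by Benjamini and Hochberg, threshold 0.05. Members and lists were chosen with earlier results of these data known. Carriers with values by array are the 8 largest increases and 8 largest decreases past the threshold after H/R, the ADP/ATP and phosphate carriers, and the 3 smallest p-values where B12 or the interaction called none. Of the other transporters the 3 smallest p-values were named. Promoter windows were cut to the 250 bases before the start site, leaving out the 50 after it. Whether a replicate number marks a shared culture or day was looked at only by a fit with that number as a block and by correlations between arrays. Over 24 pairs of arrays with the same number in different groups, deviations from group means correlated at -0.07 to 0.08. Over 72 pairs with other numbers they correlated at -0.08 to 0.07. Of the 16 arrays, 7 correlated best with an array of their own number. Replicate 1 had the highest negative control median in every group (6.10 in control, 6.08 in control+B12, 6.23 in H/R and 6.17 in H/R+B12). Plots used Python 3.11.15 and matplotlib 3.10.9.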

Additional observations from a re-analysis of the deposited data

Results flagged for a closer look

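In 11 of 184 groups of 4 values, where chance alone gives about 9.2, a single array stood apart from the other 3 by Dixon's criterion (a gap of over 0.829 of the group's range). In control they were Slc25a2 in replicate 4 (3.77, others 2.96 to 3.09), Slc25a3 in replicate 2 (15.68, others 15.37 to 15.38), Slc25a4 in replicate 4 (16.29, others 16.04 to 16.07) and Slc25a15 in replicate 1 (7.86, others 8.74 to 8.76). In control+B12 they were Slc25a13 in replicate 2 (10.00, others 9.63 to 9.69), Slc25a25 in replicate 1 (7.38, others 6.61 to 6.69) and Slc25a51 in replicate 3 (14.24, others 13.99 to 14.02). In H/R replicate 3 both Slc25a21 (4.82, others 4.89 to 4.90) and Slc25a26 (7.20, others 7.53 to 7.59) were low. In H/R+B12 Slc25a17 was high in replicate 4 (12.63, others 12.28 to 12.33) and Slc25a22 in replicate 1 (6.60, others 6.31 to 6.34). Slc25a2 and Slc25a21 lay below the negative controls. No interaction passed the test, and no carrier moved in opposite directions without overlap in the 2 H/R comparisons or in the 2 B12 comparisons.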

How the results depend on the processing

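The number of carriers called after H/R was 15 without B12, 11 to 16 when 1 array was left out and 13 to 18 under the other alternatives. With B12 in both arms it was 14, 13 to 14 and 13 to 16. In 11 of the 15 and 13 of the 14 the call held under every alternative run, and the exceptions were Slc25a4, Slc25a24, Slc25a27 and Slc25a40 without B12 and Slc25a1 with it. The replicate block gave 14 carriers without B12, losing Slc25a4, and 14 with it, and changed no other call. The counts for added B12 and the interaction stayed at 0 throughout. Alternatives were an intensity trend with robust variances, fits of only the 2 groups, the replicate block, quantile normalization, centred arrays, leaving out probe sets below the negative controls or the dimmest 25%, another probe set per gene (none has several) and leaving out each array. Slc25a3 passed after H/R without B12 under the trend (0.00328), quantile normalization (0.03) and both filters on dim probe sets (0.0144 and 0.0349); the cause was not tested. With centred arrays Slc25a5 with B12 turned from -0.05 to 0.037, neither past the threshold. The H/R change of the Slc25a37 to Slc25a28 log2 ratio, averaged over the comparisons without and with B12, was 0.083 with all arrays. Leaving out 1 array moved this change between -0.040 and 0.17, with -0.022 without H/R replicate 2, so its sign was not stable. Pairs and their alternatives were chosen after seeing the data. Below the 95th percentile of the negative controls were 26 carriers in all 4 groups, against 11 below the median. The labels give no batch or scan date.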
